A study of Amphimedon queenslandica with 43 samples.

Results

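Larvae of the sponge Amphimedon queenslandica kept in constant dark were compared at 9 and 1 hours post emergence (hpe), that is, after their release from the parent. The comparison holds 14 of the 43 larvae of the series, chosen by age and regime in their titles: 7 constant-dark larvae at 9 hpe and 7 constant-dark larvae at 1 hpe. The remaining larvae lived under natural day-night light (8 at 9 hpe and 7 at 1 hpe) or under constant light from a full-spectrum tube lamp (7 at 9 hpe and 7 at 1 hpe). Every larva was collected in a window of 30 minutes from 11 am, was in its regime by 0.5 hpe in sea water filtered at 0.22 μm, and was sequenced by itself as a whole animal. Constant dark was a neutral density filter (1.2) that passed 6.6% of the ambient daylight, so both ages of the comparison received dim light that could follow the day outside. Age, hours spent under the filter and time of day increase together between the 1 hpe and the 9 hpe larvae and cannot be told apart. Per the labels, 1 hpe larvae stand for animals not yet competent to settle and 9 hpe larvae for competent ones, but no settlement was measured on the sequenced animals.

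A demosponge larva is a small ciliated animal without nerves or muscles that swims for hours before it settles and rebuilds its body as a juvenile. It is not ready to settle when it leaves the parent, and acquires the ability to respond to settlement cues, called competence, while swimming. Its posterior ring of pigment cells and long cilia steers it away from light, with cryptochromes rather than opsins as the candidate light receptors, so that light and the passage to competence are studied together in this species.

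Counts were made per transcript model by CEL-Seq2, which reads the 3' ends of polyadenylated RNA. Totals were 2093537 to 3485926 counts in 9 hpe larvae and 2634698 to 3927366 in 1 hpe larvae, on average 2508172 ± 462633 and 3143107 ± 462342 (SD, n = 7 each). The mean log10 total was lower by a difference of -0.0996, which did not pass after adjustment for the 4 measures per larva (two-sided exact permutation p = 0.0216, adjusted 0.0862) and passed when 9 hpe replicate 7, the deepest library of its group, was left out (adjusted p = 0.00932). At the depth of the shallowest of the 14 larvae, 19866 ± 458 models would have had a count at 9 hpe and 20034 ± 337 at 1 hpe (n = 7 each, exact permutation p = 0.446, adjusted p = 0.575). The files pair no identifier with a gene name and none matched the reference gene table, so models are named by their identifiers, no function is given for them, and cell type markers could not be read. No sequence of a model was at hand.

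Of 14188 models tested, 1332 were higher and 1506 lower in constant-dark larvae at 9 hpe than at 1 hpe (edgeR quasi-likelihood F test, adjusted p below 0.05), which is 9.39% and 10.6% of the models. Most of these changes were modest in size. Among the risen models 476 changed at least 2-fold and 82 at least 4-fold, and among the fallen ones 613 and 170. The median log2 fold change was 0.85 for the risen and -0.88 for the fallen models, against 0.01 for all models tested. No tested model was without a count in all 7 larvae of one age and present in all 7 of the other. The split between risen and fallen depends on how libraries are scaled. TMM scaling, used throughout and in the CPM values given here (counts as a proportion of the scaled library total), adjusts library totals so that most models stay level, and its factors ran from 1.04 to 1.16 at 9 hpe and from 0.894 to 0.964 at 1 hpe. On library totals alone the median log2 fold change of all models was 0.27, with 2842 models higher and 820 lower.

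Falls were most frequent among the abundant models. Of the 740 models with a mean of 300 CPM or more over the 14 larvae, 48.8% fell (361 models) and 1.62% rose (12 models), and their median log2 fold change was -0.40, or -0.15 on library totals alone. Among the 1637 models at 100 to 300 CPM 24.1% fell and 7.76% rose, but on library totals alone 11.5% fell and 21.5% rose. Below that the balance turned: of the 3136 models at 30 to 100 CPM 14.6% rose and 9.89% fell, and of the 3303 models at 10 to 30 CPM 13.2% rose and 5.81% fell. Under 3 CPM, where the median standard error was 0.75 on the log2 scale against 0.15 in the most abundant class, 2.34% rose and 3.23% fell of 1579 models, but on library totals alone 4.88% rose and 2.09% fell.

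**Figure D1:**
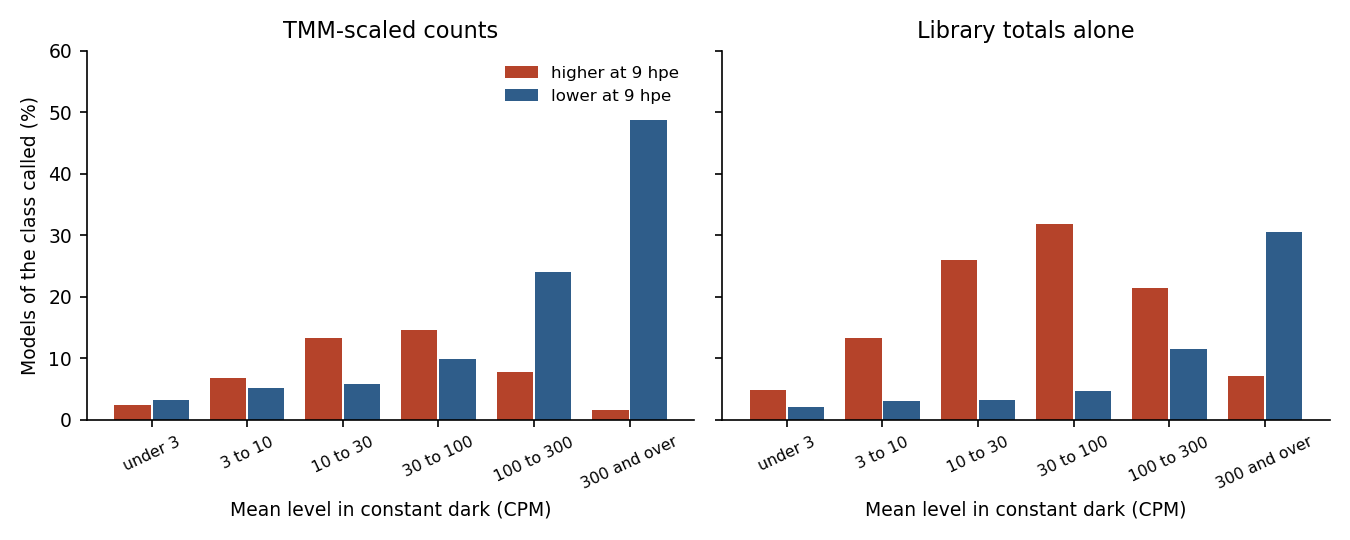
Share of the tested models called higher or lower at 9 than at 1 hpe in constant dark, in 6 classes of mean level (CPM over the 14 larvae), with TMM-scaled counts on the left and library totals alone on the right. In the class of 300 CPM and over the share called lower exceeds the share called higher under both scalings (48.8% against 1.62% with TMM, 30.5% against 7.16% without), whereas the class of 100 to 300 CPM turns from mostly lower (24.1% against 7.76%) to mostly higher (21.5% higher, 11.5% lower).

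As shares of all counts of a larva, without TMM scaling, the classes shifted as follows. The 740 most abundant models held 41.8 ± 1.46% of all counts at 9 hpe and 48.4 ± 1.45% at 1 hpe (SD, n = 7 each). The 9 hpe larvae ranged from 39.99% to 43.9% and the 1 hpe larvae from 46.4% to 50.3%, so the ages did not overlap. The 3136 models of 30 to 100 CPM held 19.5 ± 0.636% at 9 hpe and 15.9 ± 0.550% at 1 hpe, also without overlap. The 1637 models of 100 to 300 CPM held 28.3 ± 0.585% at 9 hpe and 27.2 ± 0.614% at 1 hpe with overlapping ages, so their share was higher at 9 hpe although more of them were called lower than higher with TMM scaling. The 10 most abundant models of each larva held 2.45 ± 0.291% and 2.55 ± 0.325% (exact permutation p = 0.575, adjusted p = 0.575). This difference, -0.0954 percentage points, turned to 0.00338 without 9 hpe replicate 7, and without models that reach 4000 counts it was -0.199 and passed (adjusted exact permutation p = 0.00699). Over the 100 most abundant models of each larva the share was 13.4 ± 1.05% at 9 hpe and 16.2 ± 1.15% at 1 hpe (adjusted exact permutation p = 0.00699). The counts of the most abundant models appear to be limited from above, since the highest value in the table is 8192 and 6 of the counts in these 14 larvae stood exactly there. Leaving out all 154 models that reach 4000 counts in any larva kept the pattern, with 44.0% fallen and 1.53% risen of the 588 remaining models of 300 CPM or more. In the other regimes these same 740 models also fell more often than they rose with age, 42.7% against 5.27% in day-night and 14.9% against 2.16% in constant light.

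**Figure D2:**
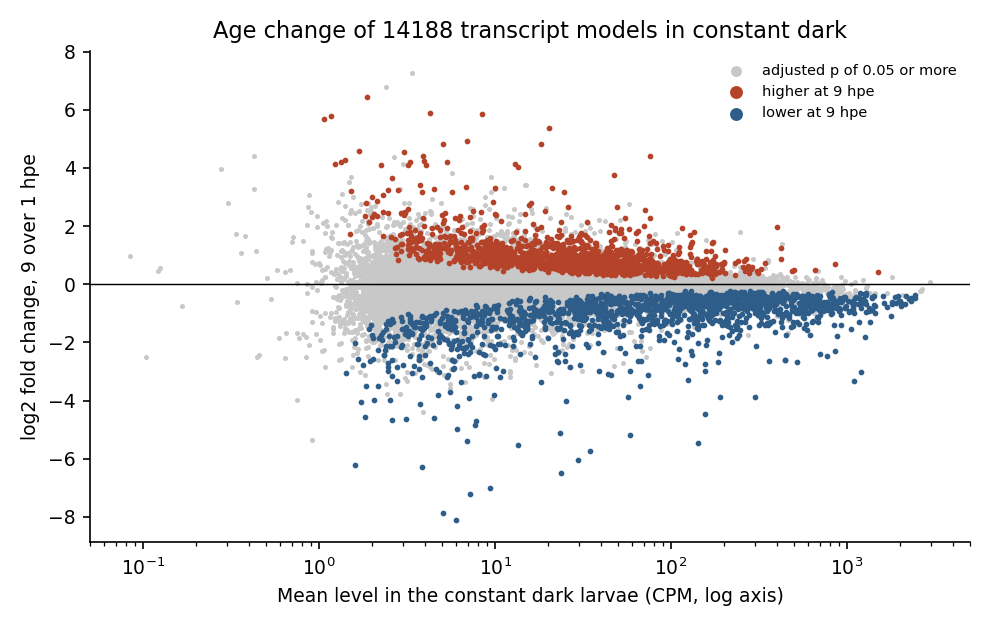
Log2 fold change of 9 over 1 hpe in constant dark against the mean level of each of the 14188 tested models (CPM, log axis); each point is 1 model and colours mark those with an adjusted p below 0.05. The cloud bends below 0 at its right end, where 361 of 740 models of 300 CPM or more were called lower, and the largest fold changes lie among models of low level.

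Of 232 risen models whose larvae did not overlap between the ages, with at least 20 CPM at 9 hpe and no count of 4000, Aqu2.1.40667_001 rose most. It had between 80.6 and 250.1 CPM in the 9 hpe larvae, with a median of 143, and between 2.65 and 11.5 CPM in the 1 hpe larvae, with a median of 6.76. The lowest 9 hpe larva thus stood several times above the highest 1 hpe larva. On the log2 scale the model rose by 4.41 ± 0.48 (SE; edgeR adjusted p = 8.81e-09). All 28 alternatives of this comparison kept the call, with adjusted p from 4.35e-23 to 3.80e-05. Aqu2.1.34611_001 was the most abundant of those that rose at least 2-fold. It had 443 to 824 CPM at 9 hpe (median 628) and 103 to 233 CPM at 1 hpe (median 145). This rise of 1.98 ± 0.22 on the log2 scale (SE; edgeR adjusted p = 1.07e-08) was called in all 28 alternatives as well, the weakest being surrogate variables (adjusted p = 0.00885). The model rose more in day-night (3.09) and in constant light (3.07), but the differences from constant dark did not pass (edgeR adjusted p = 0.0543 and 0.0609). At 1 hpe it averaged 161 CPM in constant dark, 95.3 CPM in day-night and 61.9 CPM in constant light.

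Among the 431 models that fell without overlap and met the same limits at 1 hpe, Aqu2.1.00853_001 had the largest fold change. At 9 hpe 4 of the 7 larvae had no count of it and the highest reached 1.54 CPM, whereas the 1 hpe larvae had 2.88 to 104 CPM with a median of 41.8. The 1 hpe larvae fell into 2 sets, since replicates 4 and 6 stood at 2.99 and 2.88 CPM and the other 5 at 32.8 CPM or more. Replicates 4 and 6 had 7 counts each, against 6 counts in 9 hpe replicate 7, the highest of its age. The change was -6.48 ± 1.75 on the log2 scale (SE; edgeR adjusted p = 0.00677). The call was lost with limma voom, with or without clusters as a random block, with the cluster as a term and with surrogate variables. Over the 27 alternatives that tested it the adjusted p was 0.000160 to 0.235. In day-night larvae it had 0 to 35.1 CPM at 9 hpe and 0.687 to 129 CPM at 1 hpe. Constant-light larvae had 0 to 110 CPM and 0 to 92.8 CPM. Neither age change was called there (edgeR adjusted p = 0.469 and 0.887), nor was either difference from constant dark (edgeR adjusted p = 0.425 and 0.0927). Aqu2.1.30435_001 was the most abundant of the 431 at 1 hpe among those that fell at least 2-fold. It stood at 326 to 748 CPM at 9 hpe (median 528) and at 923 to 1361 CPM at 1 hpe (median 1129), which is -1.03 ± 0.17 on the log2 scale (SE; edgeR adjusted p = 3.07e-05). It passed in every alternative except that with surrogate variables (adjusted p = 0.262).

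**Figure D3:**
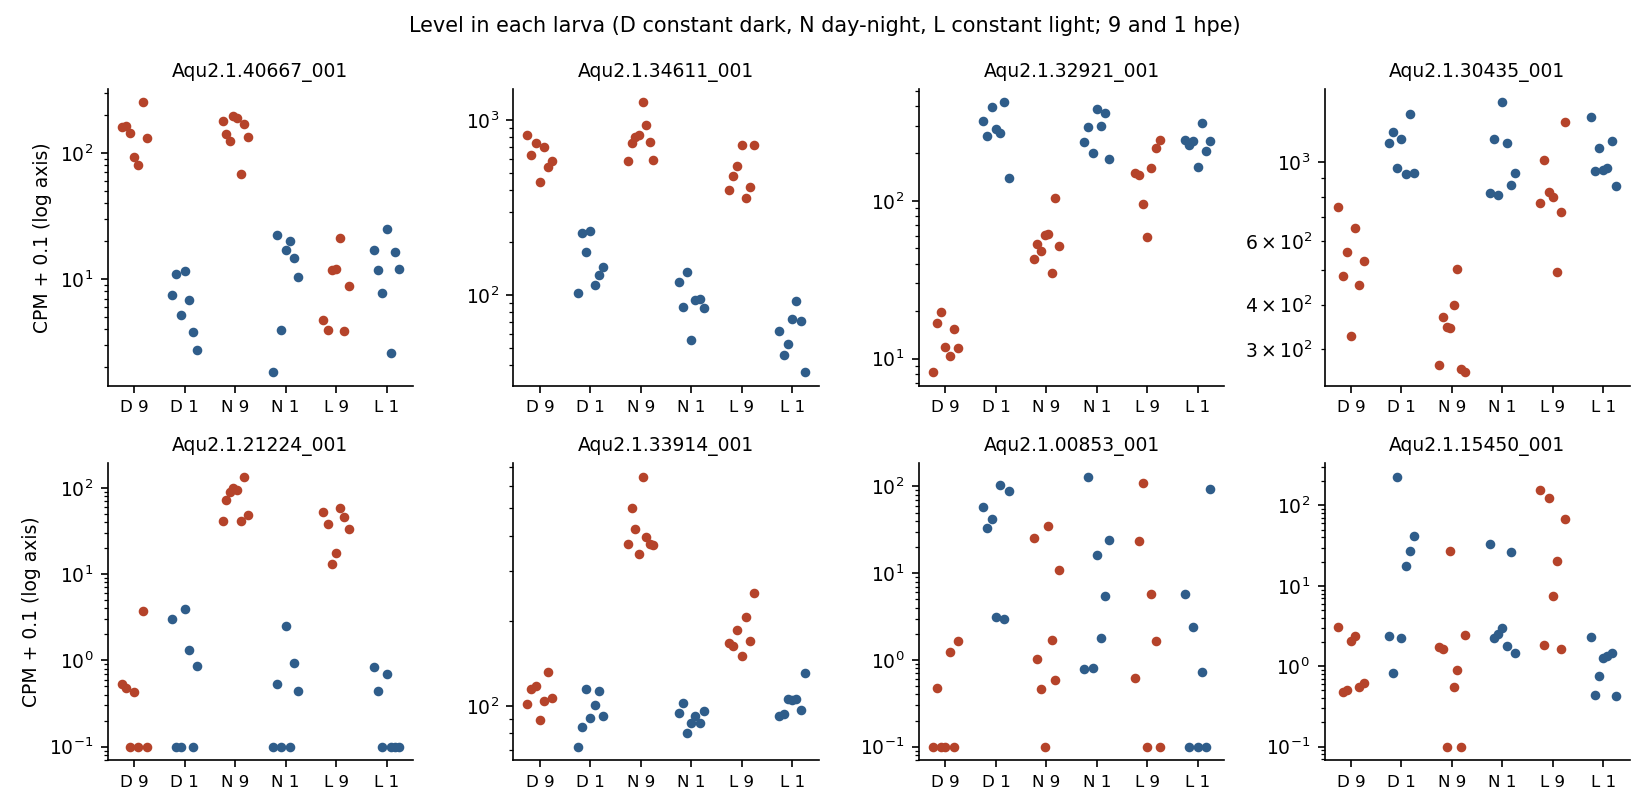
CPM of 8 named models in every larva (log axis, 0.1 added so that larvae without counts appear at the bottom); D, N and L stand for constant dark, day-night and constant light, and 9 and 1 for hours post emergence. In constant dark Aqu2.1.40667_001 and Aqu2.1.34611_001 are higher in all 9 hpe larvae than in any 1 hpe larva, Aqu2.1.32921_001 and Aqu2.1.30435_001 lower, and Aqu2.1.21224_001 stays at or below 3.84 CPM at both ages while it reaches 41.03 CPM or more in every 9 hpe day-night larva.

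Models whose larvae were separated completely by age were the smaller part of the calls. The 7 larvae at 9 hpe all lay above, or all below, the 7 larvae at 1 hpe for 312 of the 1332 risen and 525 of the 1506 fallen models, against 2.23% (higher) and 3.74% (lower) of all tested models whose larvae did not overlap. On library totals alone 647 of the risen and 233 of the fallen models were without overlap. Of all 14188 tested models 811 (higher) and 233 (lower) were without overlap on that scaling. The share without overlap was 20.3% for rises under 2-fold, 29.7% for 2 to 4-fold, 32.6% for 4 to 8-fold and 17.9% for 8-fold and over. For falls it was 32.7%, 38.1%, 39.6% and 33.9% in the same classes. The share without overlap thus increased up to 8-fold and was lower in the small class above it, whereas the share also called by limma voom decreased throughout. Of the 39 models that rose at least 8-fold limma voom also called 25.6%, and of the 856 that rose less than 2-fold 92.5%. For the 59 falls of at least 8-fold this share was 40.7%, and for the 893 falls of less than 2-fold 95.7%. The median level at the higher age was 7.43 CPM for rises of at least 8-fold and 43.3 CPM for rises of less than 2-fold, and 13.8 CPM and 214 CPM for the falls.

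**Figure D4:**
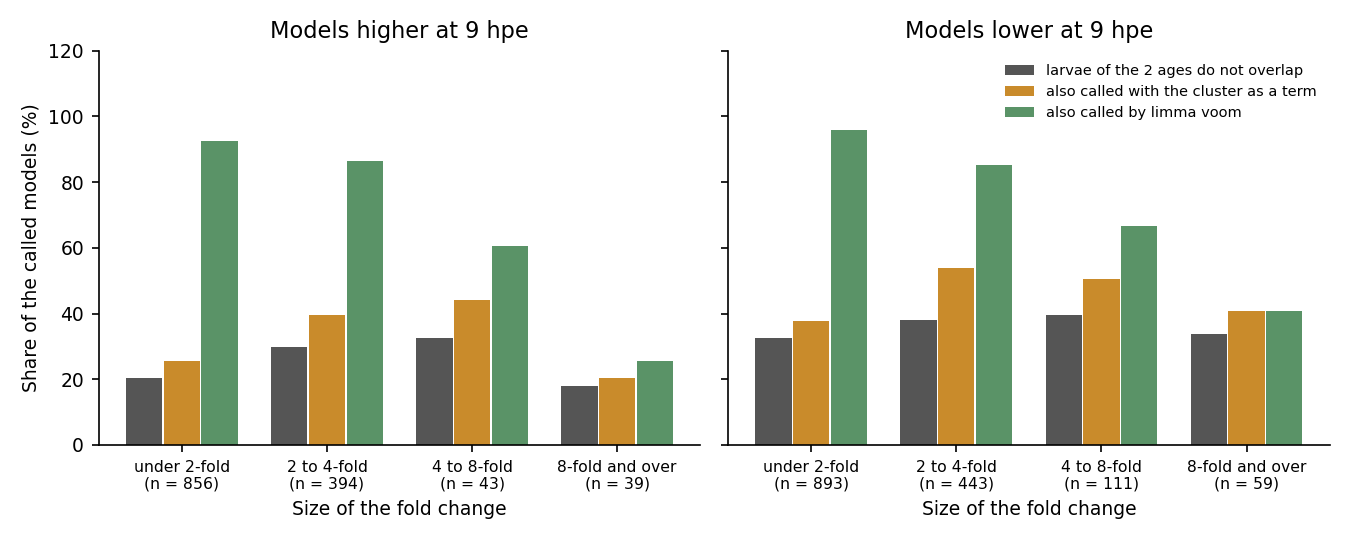
Models called in constant dark by the size of their fold change (number in each class below the axis), with the share whose larvae of the 2 ages do not overlap, the share also called with the cluster of alike larvae as a term and the share also called by limma voom. The limma voom share declines with the size of the change, for models higher at 9 hpe from 92.5% under 2-fold to 25.6% at 8-fold and over.

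The constant-dark larvae of the ages lay apart along the main axis of variation. Along the first principal component, computed from log2 CPM of all 43 larvae (9.65% of the variance) the 9 hpe constant-dark larvae lay between 15.6 and 42.5 and the 1 hpe constant-dark larvae between -43.6 and -27.3. Replicate 1 at 9 hpe, at 15.6, lay closest to the younger larvae, and the next larva of its group stood at 32.1. The same larva stood lowest in its group on an age score built from other animals. That score is the mean log2 CPM of 1187 models that rose minus that of 1344 that fell between the ages in a fit of the 15 day-night larvae alone. It was -0.49 ± 0.19 in 9 hpe constant-dark larvae and -1.84 ± 0.11 in 1 hpe constant-dark larvae (SD, n = 7 each). The 9 hpe larvae ranged from -0.84 (replicate 1) to -0.24 (replicate 4) and the 1 hpe larvae from -1.98 to -1.70. The day-night larvae, which chose the models, had 0.00 ± 0.12 at 9 hpe (n = 8) and -2.11 ± 0.24 at 1 hpe (n = 7). Constant-light larvae had -0.76 ± 0.19 at 9 hpe and -1.57 ± 0.12 at 1 hpe (n = 7 each). On this score the span between the ages in constant dark lay between those of the other regimes, though the models were chosen on the day-night larvae, which favours a wide span there.

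**Figure D5:**
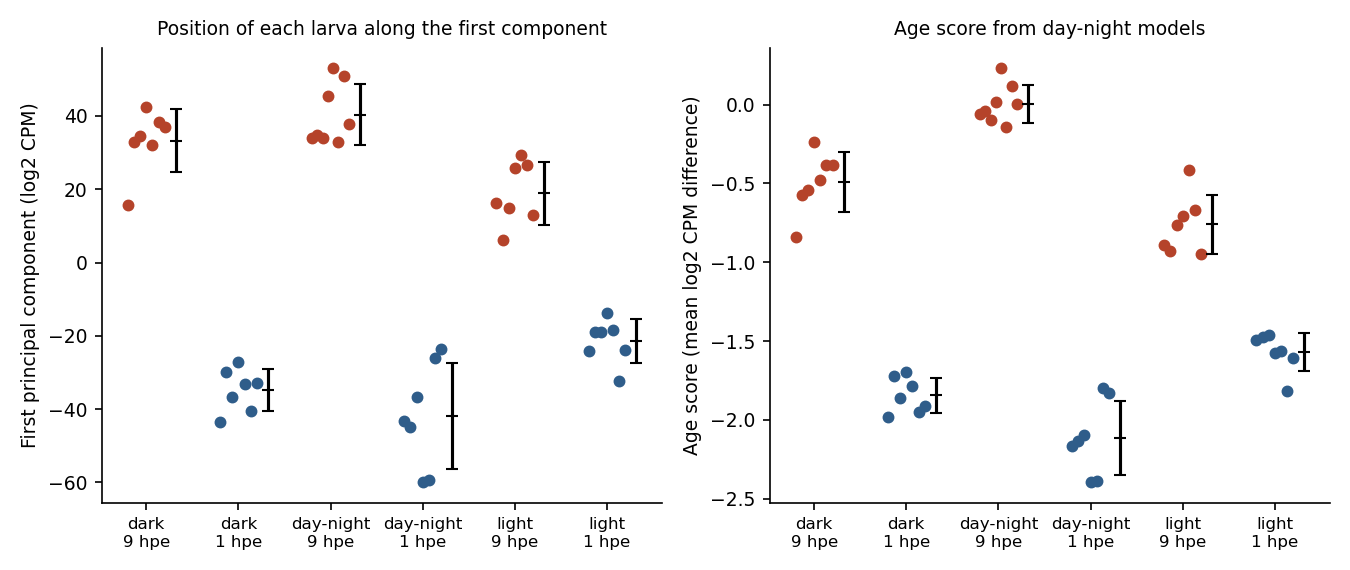
Each point is a larva, with the mean and SD of its group beside it: left, the first principal component from log2 CPM; right, the age score from models that changed in day-night larvae (mean log2 CPM of risen minus fallen models). In constant dark the ages do not overlap in either panel, and 1 larva at 9 hpe (replicate 1, at 15.6 and -0.84) lies nearest to the 1 hpe larvae.

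The counts behind the calls shifted in each larva. The 1332 risen models held 7.28 to 9.18% of the counts of 9 hpe larvae and 3.78 to 4.38% in 1 hpe larvae, and the 1506 fallen models 26.04 to 30.97% at 9 hpe and 39.2 to 42.4% at 1 hpe. These models were chosen on the same larvae, so the shares describe the size of the change and test nothing. Replicate 1 at 9 hpe had the lowest share of risen and the highest share of fallen models in its group. Without that larva 2877 models were called, the highest number among the 14 fits that each left out 1 larva (2358 to 2877). The calls of 832 risen and 1033 fallen models held in all 14 of those fits.

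Larvae of a group were not alike, and some resembled larvae of other groups. After subtraction of the mean of their age over all regimes, the profiles of the 43 larvae fell into 9 clusters of at least 2 larvae and 5 single larvae (average linkage, distance 1 - r up to 0.9). Regime differences at an age remained in these deviations, so a cluster term can also take up part of a regime difference. The 9 hpe constant-dark larvae were spread over 4 clusters and a single larva (replicates 2 and 3, replicates 4 and 5, and replicates 1, 7 and 6 each apart), and the 1 hpe constant-dark larvae over 4 clusters (replicates 1 and 2, replicates 3, 5 and 6, and replicates 4 and 7 each apart). Pairs of constant-dark larvae within a cluster correlated at 0.107 to 0.266 in these deviations, and pairs from different clusters at -0.134 to 0.0545. The clusters were built from these same correlations, so this contrast was fixed in advance and tests nothing. The labels give no parent, so whether clusters are broods was not tested. The spread between larvae was alike at the ages, with a median SD of log2 CPM of 0.53 at 9 hpe and 0.53 at 1 hpe.

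The clusters were not shared evenly between the ages. Only 1 cluster held constant-dark larvae of both ages, namely replicates 2 and 3 at 9 hpe and replicate 7 at 1 hpe. Between these 3 larvae 96.5% of the risen models were higher and 95.2% of the fallen models lower at 9 hpe, with median log2 differences of 0.84 and -0.78 (all tested models 0.00), although these larvae had helped to choose them. Aqu2.1.40667_001 had 164 and 143 CPM in these 9 hpe larvae and 2.65 CPM in this 1 hpe larva. Aqu2.1.00853_001 had 0.378 and 0 CPM, against 87.4 CPM. With the cluster as a term in the fit 1214 models were called, 1055 of them among the 2838, and with counts summed over alike larvae of a group, which left 5 profiles at 9 hpe and 4 at 1 hpe, 1656 models, 1620 of them among the 2838. On the second principal component 8 larvae lay below its widest gap, at -57.9 to -38.9, of which 3 are 1 hpe constant-dark larvae (replicates 3, 5 and 6). The rest are constant-light larvae, 4 at 9 hpe and 1 at 1 hpe, and the 8 together form 1 of the clusters. Without these 8 larvae 1720 models were called. Another 8 larvae lay apart at the high end, at 29.4 to 44.0, among them constant-dark replicate 7 at 9 hpe, and were kept. With 11 surrogate variables 379 models were called.

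Models that changed in constant dark mostly moved the same way in larvae of the other regimes, which are different animals. Of the 1332 risen models 94.7% were higher at 9 hpe in day-night larvae and 80.6% in constant-light larvae, with median log2 fold changes of 0.85 in constant dark, 0.57 in day-night and 0.29 in constant light. Of the 1506 fallen models 95.3% were lower in day-night and 85.0% in constant light, with medians of -0.88, -0.72 and -0.32. Lists chosen in constant dark favour large changes there. Models chosen in constant light were chosen on neither constant-dark nor day-night larvae, though in the same fit. The 373 that rose there (2.63% of the models tested) had a median log2 fold change of 0.51 in constant dark and 0.68 in day-night, and the 494 that fell there (3.48%) -0.78 and -0.85, while all tested models had medians of 0.01 in both regimes. In constant dark 190 of these 373 and 351 of these 494 were called the same way, against 9.39% risen and 10.6% fallen of all models. Such a list need not treat constant dark and day-night alike. The cluster of 8 larvae low on component 2 held 3 constant-dark larvae at 1 hpe and 4 constant-light larvae at 9 hpe, but no day-night larva. Of the 373, 82.0% were higher at 9 hpe in constant dark and 90.3% in day-night. Of the 494, 93.3% and 92.3% were lower.

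Where the age change in constant dark differed from that in day-night, most models rose less, or not detectably, under the filter. The difference of age changes was called for 133 models (0.937% of those tested), of which 111 (0.782%) had a less upward or more downward change in constant dark and 22 (0.155%) the opposite. Over all tested models 9.94% rose and 12.1% fell with age in day-night. Other fits called other numbers of models with a more upward change in constant dark, which need not be among the 22. These were 3 of 75 with clusters summed, 15 of 82 with clusters as a term and 8 of 104 with limma voom. They were 8 of 113 when the 8 larvae were dropped that lie at the low end of component 2. DESeq2 gave 40 of 191, library totals alone 31 of 133 and DESeq2 size factors in edgeR 23 of 132. Of the 111, 61 rose in day-night and were not called in constant dark, 30 rose in both and 12 fell in constant dark while they rose in day-night. Constant-dark larvae had a median log2 fold change of 0.13 over the 111, and day-night larvae 1.66. Of the 22, 11 fell in day-night and were not called in constant dark, and 6 rose in constant dark while they fell in day-night.

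Aqu2.1.21224_001 showed the largest of these differences among the 101 of the 111 models that had at least 20 CPM in the highest group and no count of 4000. In constant dark it stood at 0 to 3.61 CPM at 9 hpe (11 counts over the 7 larvae) and at 0 to 3.84 CPM at 1 hpe (24 counts). In day-night larvae it had 41.03 to 134 CPM at 9 hpe and 0 to 2.42 CPM at 1 hpe, and in constant-light larvae 13.1 to 58.4 CPM and 0 to 0.748 CPM. It was therefore near 0 at both ages under the filter, and every 9 hpe larva of the other regimes stood above every constant-dark larva. The age change was -0.95 ± 0.84 SE in constant dark (edgeR adjusted p = 0.471) and differed from day-night by -8.01 ± 1.15 SE (adjusted p = 1.62e-05) and from constant light by -8.00 ± 1.20 SE (adjusted p = 0.000106). Aqu2.1.33914_001 gave the lowest adjusted p of these. It had 89.1 to 132 CPM at 9 hpe and 71.8 to 115 CPM at 1 hpe in constant dark, with overlapping ages, against 344 to 646 CPM and 80.5 to 102 CPM in day-night. The difference of age changes was -2.03 ± 0.17 SE (edgeR adjusted p = 2.02e-10). In constant light the model averaged 185 ± 34.3 CPM at 9 hpe and 104 ± 13.1 CPM at 1 hpe (n = 7 each).

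Of the 11 models with a more upward change in constant dark that met the limits for naming (at least 20 CPM in the highest group and no count of 4000), Aqu2.1.08473_001 had the largest difference, 9.82 ± 1.78 SE (edgeR adjusted p = 0.000761). It rested on few larvae. At 9 hpe in constant dark replicate 5 had 227 CPM, replicate 4 of the same cluster 13.1 CPM and the other larvae 4.10 CPM or less, and at 1 hpe the highest had 4.54 CPM. In day-night larvae it averaged 0.414 ± 0.303 CPM at 9 hpe (n = 8) and 15.3 ± 20.3 CPM at 1 hpe (n = 7). Once clusters entered the fit the difference was 2.61 and did not pass (adjusted p = 0.805). Aqu2.1.25383_001 had the lowest adjusted p of the remaining ones. It averaged 204 ± 31.2 CPM at 9 hpe and 227 ± 26.6 CPM at 1 hpe in constant dark (n = 7 each), and 123 ± 17.8 CPM (n = 8) and 254 ± 53.2 CPM (n = 7) in day-night. Its age changes differed by 0.88 ± 0.17 SE (edgeR adjusted p = 0.00127), and all 43 alternatives kept the call.

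Against constant light, the differing models were mostly falls that were seen in constant dark. The difference of age changes was called for 148 models (1.04%), 105 of them (0.740%) with a more downward and 43 (0.303%) with a more upward change in constant dark. Of the 105, 66 fell in constant dark and were not called in constant light, and 16 fell in both. Of the 43, 32 rose in constant dark and were not called in constant light. This number depended on single larvae: it was 74 without constant-dark replicate 4 at 9 hpe and 249 without constant-dark replicate 1 at 9 hpe, and it was 33 with the cluster as a term and 430 with DESeq2. On library totals alone 51 of 127 were more downward in constant dark, so the direction of the majority also depends on the scaling. The cluster of 8 larvae low on component 2 held 3 constant-dark larvae at 1 hpe and 4 constant-light larvae at 9 hpe. Both groups enter this difference with the same sign, so regime and cluster cannot be fully told apart in it. Without those 8 larvae the difference was called for 21 models.

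Aqu2.1.32921_001 had the lowest adjusted p among the 86 of the 105 models that met the same limits. It stood at 8.08 to 19.8 CPM at 9 hpe in constant dark (median 11.8) and at 139 to 420 CPM at 1 hpe (median 287). In constant light it had 58.6 to 244 CPM at 9 hpe and 163 to 311 CPM at 1 hpe, and in day-night 34.99 to 104 CPM and 183 to 384 CPM. All 9 hpe constant-dark larvae thus lay below every other larva of the series, while the 1 hpe levels overlapped between the regimes. The log2 fold change with age was -4.48 ± 0.29 SE in constant dark (edgeR adjusted p = 4.98e-15). It differed from that in constant light by -3.87 ± 0.36 SE (adjusted p = 3.30e-09, and 1.17e-22 to 0.000209 over the alternatives) and from that in day-night by -2.19 ± 0.35 SE (adjusted p = 0.000128).

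On the upward side 25 of the 43 models met them, of which Aqu2.1.40667_001 had the lowest adjusted p. Its level in constant light averaged 9.37 ± 6.29 CPM at 9 hpe and 13.1 ± 7.18 CPM at 1 hpe (n = 7 each), and in day-night 150.1 ± 42.6 CPM (n = 8) and 12.7 ± 7.80 CPM (n = 7). The rise in constant dark thus differed from the change in constant light by 4.88 ± 0.63 SE (edgeR adjusted p = 3.27e-06), and the difference from day-night, 0.84 ± 0.59 SE, did not pass (adjusted p = 0.750). Those with the largest differences, Aqu2.1.15450_001 downward and Aqu2.1.44088_001 upward, varied between larvae of a group. Aqu2.1.15450_001 averaged 1.28 ± 1.10 CPM at 9 hpe and 45.6 ± 81.7 CPM at 1 hpe in constant dark, with 228 CPM in 1 hpe replicate 3, and 54.2 ± 64.0 CPM and 1.05 ± 0.676 CPM in constant light (n = 7 each). Its difference was -10.77 ± 1.77 SE (edgeR adjusted p = 0.000532, and up to 0.278 over the alternatives). Aqu2.1.44088_001 had 0 to 69.9 CPM at 9 hpe and 0 to 1.93 CPM at 1 hpe in constant dark, against 0.411 to 4.13 CPM and 5.32 to 146 CPM in constant light. Its difference was 8.47 ± 1.75 SE (edgeR adjusted p = 0.0104) and fell to 3.52 once clusters entered the fit as a term (adjusted p = 0.520).

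Models of the 2 kinds of identifier were called at different rates. Of 13825 tested models with identifiers starting Aqu2.1, 9.54% rose and 10.7% fell with age in constant dark, and of 363 starting TCONS 3.58% rose and 7.16% fell. The TCONS models were lower in level, with a median of 4.98 CPM against 18.4 CPM, and the part of level in this was not tested. All TCONS models together held 0.691 ± 0.0529% of the counts at 9 hpe and 0.666 ± 0.0309% at 1 hpe (n = 7 each, exact permutation p = 0.291, adjusted p = 0.575). Called models also lay beside each other in the numbering of the Aqu2.1 identifiers. Of the risen models 23.6% had a risen model at the next or the preceding number, which held for 12.6% of all tested numbers, and of the fallen models 24.3% had a fallen one, against 13.1%. Whether neighbouring numbers are neighbouring genes or near-identical copies that share reads is not given in the sources used here.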

How the data were processed

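The authors deposited raw counts per transcript model and larva, 47411 models, from which spike-in and bacterial features had been taken out, as the file name states. Per the labels' protocols, TRIzol was used to isolate the RNA of each larva and CEL-Seq2 to sequence it. How reads were aligned and counted, and against which build and annotation, is not given in the sources used here. A second deposited table, of normalized values, was not used.

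Groups and replicate numbers came from the titles. Models were filtered with filterByExpr (minimum count 10), scaled with TMM and tested with edgeR 4.0.16 (R 4.3.3), 1 quasi-likelihood fit of 6 group means over 43 larvae, Benjamini-Hochberg adjustment over 14188 models, threshold 0.05. CPM and log2 CPM (prior count 2) use the TMM-adjusted totals. A standard error is the fold change over the root of its F statistic. Single values per larva were compared by exact permutation. The fit was also run on simulated counts of independent larvae without clusters, which cannot show how it behaves where larvae resemble each other, as here. Replicates are separate larvae, so p-values measure the spread between larvae, which the main fit treats as independent although they form clusters. Chi-square per degree of freedom was 13.0 or more in all 42 replicate pairs, so no pair agreed within sampling noise. Intervals of counting error are not given, since the spread between larvae exceeds it.

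Named models had an adjusted p below 0.05, at least 20 CPM in the highest group compared and no count of 4000. For the age change they were, in each direction, the largest change and the highest level (at least 2-fold) among models without overlap, and for each difference of age changes the largest difference and the lowest adjusted p. No more than 2 models per direction are named, since identifiers are not paired with genes. The comparison, lists, rule and tests were chosen with earlier results of these data known. Alternatives were limma 3.58.1, DESeq2 1.42.0, surrogate variables (sva 3.50.0), other filters and scalings, fewer groups, a replicate block, clusters and leaving out larvae. Library totals alone, summed clusters and clusters as a random block were added after seeing the data.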

Additional observations from a re-analysis of the deposited data

Results flagged for a closer look

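Dixon's test was applied to 82 sets of 7 or 8 larvae, each being 1 measure or 1 named model in 1 group (critical values 0.568 and 0.526). Named models were read as log2 CPM, which has a floor at 0 counts. In 8 sets a larva lay far from the others. Chance would give about 1 in 20 for independent and normal sets. These sets share larvae and include models chosen for their changes, so that rate is only a rough guide. On the first principal component, constant-dark replicate 1 at 9 hpe stood apart at 15.6. For Aqu2.1.21224_001 constant-dark replicate 6 at 9 hpe had 3.61 CPM, above the others of its group. For Aqu2.1.44088_001 constant-dark replicate 6 at 1 hpe had 0 CPM, below its group, while day-night replicate 5 at 9 hpe had 73.7 CPM and day-night replicate 4 at 1 hpe 96.2 CPM, above theirs. For Aqu2.1.15450_001 day-night replicate 4 at 9 hpe had 27.4 CPM, above its group. For Aqu2.1.40667_001 day-night replicate 6 at 9 hpe had 67.6 CPM, below its group. For Aqu2.1.33914_001 constant-light replicate 7 at 1 hpe had 131 CPM, above its group.

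The age change of 8 named models differed between regimes by the test of the difference itself (edgeR, adjusted p below 0.05, given with each model in the results). Constant dark minus day-night, the difference of log2 fold changes was 9.82 for Aqu2.1.08473_001, 0.88 for Aqu2.1.25383_001, -8.01 for Aqu2.1.21224_001, -2.03 for Aqu2.1.33914_001 and -2.19 for Aqu2.1.32921_001. Constant dark minus constant light, it was 4.88 for Aqu2.1.40667_001, 8.47 for Aqu2.1.44088_001, -8.00 for Aqu2.1.21224_001, -10.77 for Aqu2.1.15450_001 and -3.87 for Aqu2.1.32921_001.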

How the results depend on the processing

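The count of models changed with age in constant dark (2838) moved to 1214 with clusters as a term, 379 with surrogate variables, 1656 with clusters summed and 1720 when the 8 larvae at the low end of component 2 were dropped, and 2358 to 2877 when single larvae were left out. The other 10 alternatives kept it within 1.5 times, and 54 risen and 188 fallen models were called under all 28. Among those 10, library totals alone changed the make-up of the calls. That scaling called 3662 models, 2842 higher and 820 lower, of which 2152 were among the 2838. The difference from day-night (133 models) fell to 82 with clusters as a term, 75 with clusters summed and 111 to 137 without single larvae. The difference from constant light (148 models) was 430 with DESeq2, 61 with no filter on low counts, 33 with clusters as a term, 17 with surrogate variables, 21 without those 8 larvae, 31 with the cluster as a random block and 16 with clusters summed. Without single larvae it was 74 to 249. Those that moved it by over 1.5 times were constant-dark replicates 1 (249), 4 (74) and 7 (97) at 9 hpe and 6 (84) at 1 hpe, and constant-light replicates 2 (86), 5 (244) and 7 (83) at 9 hpe and 1 (75), 2 (84) and 3 (96) at 1 hpe. The cause of these shifts was not tested.

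With a replicate block the counts were 2601 for the age change, 114 for the difference from day-night and 92 for that from constant light. The numbers do not pair the larvae: same-numbered 9 and 1 hpe constant-dark larvae correlated at -0.0333 to 0.0379.

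Of the values per larva, the difference in log10 totals was -0.124 to -0.0828 without single larvae. The difference in models detected was 21.4 when 2 counts were required (adjusted exact permutation p = 0.898) and -308 to -77.3 without single larvae. The difference in the share of the 10 most abundant models was -0.180 to 0.00338 without single larvae, reversed without 9 hpe replicate 7. It was -2.74 for 100 models and -0.199 without models of 4000 or more counts (adjusted exact permutation p = 0.00699 for each). The difference in the TCONS share was -0.00862 without those models (adjusted exact permutation p = 0.745) and 0.0143 to 0.0359 without single larvae. Below 3 CPM the standard errors leave small changes undetectable.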
